A study of Rattus norvegicus with 6 samples.

Results

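The receptors through which microglia recognize antibody-coated and dying material were followed here by their mRNA: 9 genes that encode Fc receptors (Fcgr1a, Fcgr2a, Fcgr2b, Fcgr3a and their signalling chain Fcer1g) and the efferocytosis receptors of the TAM family with their ligands (Mertk, Axl, Gas6 and Pros1). They were chosen by name, and 10 of the 23139 rows of the deposited tables carried one of these names. Fcgr2a appeared in 2 rows, Fcgr2a_1 and Fcgr2a_2, and the other 8 names in 1 row each. Microglia came from cortices of Wistar rats at postnatal day 1, were shaken off mixed cultures after 10 days and purified by their CD11b/c surface antigen. In both groups cells received lipopolysaccharide (LPS, a bacterial outer membrane component that activates microglia) at 100 ng/mL. In the LPS group it was combined with the solvent DMSO, and in the LPS/siponimod group with 50 µM siponimod, a modulator of sphingosine-1-phosphate receptors. Each group held 3 libraries of poly(A)-selected mRNA, described as biological replicates. Neither how many animals stood behind a library nor how long the sequenced cells had been stimulated is given in the sources used here. Library depth lay between 38080379 counts (LPS replicate 3) and 46643859 counts (LPS/siponimod replicate 1). Cells without LPS are not analysed here, so that every value sets LPS/siponimod against LPS.

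Fc gamma receptors bind the constant part of IgG. Fcgr1a is the high-affinity receptor, Fcgr3a a low-affinity one, and both signal through the gamma chain Fcer1g, whose activation motif recruits the kinase Syk and starts phagocytosis. Fcgr2b is the inhibitory receptor of the family and recruits the phosphatase SHIP-1. Mertk and Axl are receptor tyrosine kinases that do not touch dying cells directly: Gas6 and protein S, the product of Pros1, bridge them to phosphatidylserine. Gas6 binds Mertk and Axl, whereas protein S binds Mertk but not Axl. In macrophages and microglia this system clears apoptotic cells and dampens inflammatory signalling.

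Levels are given as CPM, counts scaled to a common library size. Some libraries stood apart. Over the genes tested, log2 CPM of LPS replicate 3 had a Pearson correlation of 0.935 with LPS replicate 1 and of 0.945 with LPS replicate 2, whereas LPS replicates 1 and 2 reached 0.983. LPS/siponimod replicate 2 was nearer to the LPS group, with 0.936, 0.931 and 0.920 to LPS replicates 1, 2 and 3. For LPS/siponimod replicates 1 and 3 these correlations lay between 0.851 and 0.899. Of the 10 rows, LPS replicate 3 had the lowest LPS values of Fcgr3a, Fcer1g, Mertk, Axl, Gas6 and Pros1. Same-numbered libraries of both groups deviated together from their group means, and differences within these pairs are therefore given beside the group values.

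With siponimod these genes differed from LPS alone in both directions. The inhibitory receptor gene Fcgr2b rose 4.39-fold, while Fcgr1a fell 2.46-fold, Fcer1g 1.84-fold and Axl 3.58-fold. The other 6 rows were not differentially expressed genes (DEGs, defined by a change of 1.5-fold or more whose adjusted p in edgeR's quasi-likelihood test did not exceed 0.05). All 10 rows passed the filter on low counts. Thus 1 of the 10 was an upregulated DEG, against 13.6% of the 11977 genes tested, and 3 were downregulated DEGs, against 11.7%. In either direction these were 4 of 10, beside 25.3% of all genes. In 5 of the 10 rows the 3 libraries of one group lay entirely above those of the other, which is near the 49.3% of all genes tested. The median log2 fold change (FC) of the 10 rows was -0.74, and that of all genes -0.02. In bulk samples such as these, fewer cells of a type and less RNA per cell cannot be told apart, and the summed level of microglial markers was lower with LPS/siponimod as well (2376 to 4095 against 4415 to 7729 CPM). The number of DEGs among the 10 rows depended on single libraries. It was 0 without LPS replicate 2, 1 without LPS/siponimod replicate 1 or replicate 3, 2 without LPS replicate 1 and 5 without LPS replicate 3. Over all genes the share of DEGs in these fits moved as well, to 5.16% without LPS replicate 2, 6.22% and 8.50% without LPS/siponimod replicate 1 and replicate 3, 13.9% without LPS replicate 1 and 30.3% without LPS replicate 3. With the replicate number as a blocking factor 5 of the 10 rows and 34% of all genes were DEGs.

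**Figure D1:**
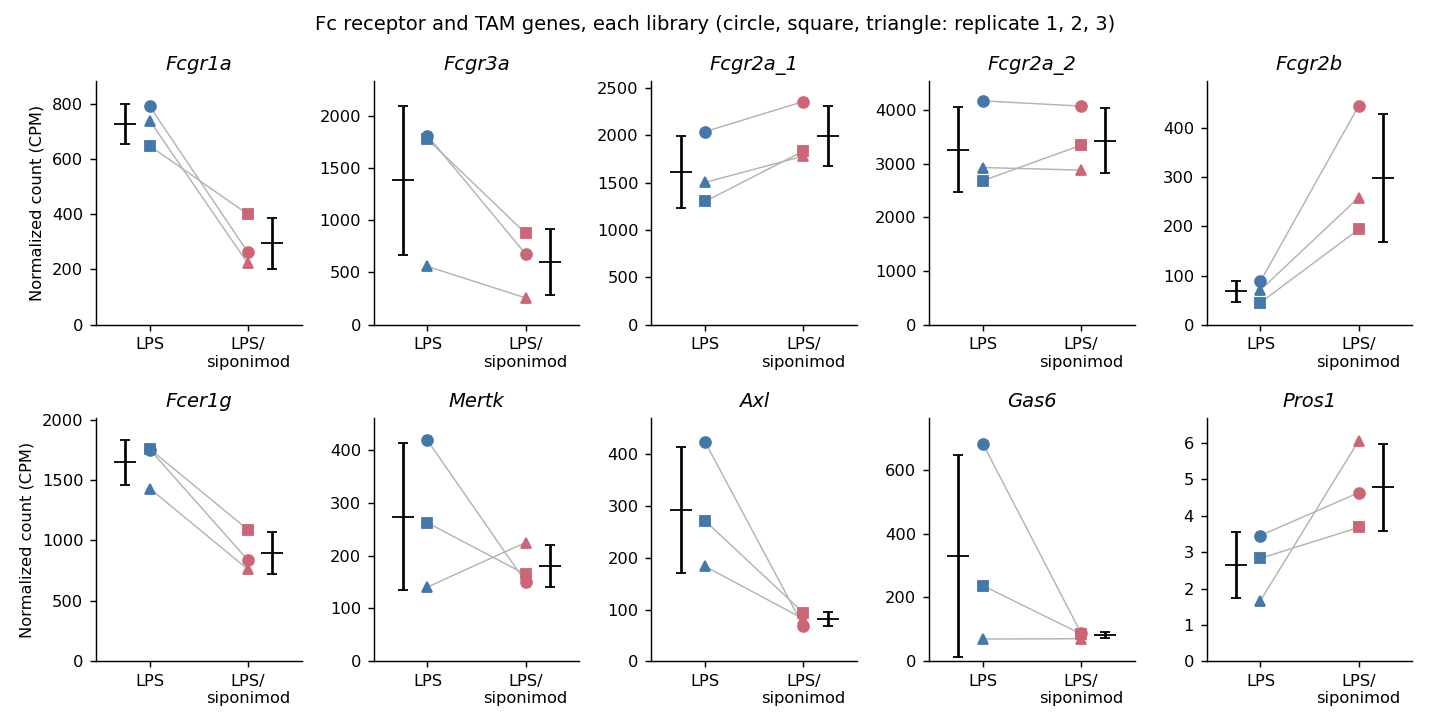
Normalized counts (CPM, linear axes from 0) of the 10 rows in each library of LPS (blue) and LPS/siponimod (red), with grey lines joining same-numbered libraries and black bars for the mean ± SD of 3 libraries. Fcgr1a, Fcer1g and Axl lie lower and Fcgr2b lies higher in all LPS/siponimod libraries, Mertk crosses over in replicate 3, and Gas6 is at 70.0 CPM in LPS replicate 3 against 681 CPM in LPS replicate 1.

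Sequences before the start sites were read for 6 of the 9 genes from the RefSeq promoter table (build GRCr8, which is not the build of the mapping, mRatBN7.2). No entry was found for Fcgr1a, Fcgr2b and Fcer1g. The sequences of Fcgr3a and Axl, whose mean level was lower under LPS/siponimod, and of Pros1, whose mean was higher, are shown. Each held a searched motif, as did Fcgr2a, which is not shown. Of the genes shown, only Axl was a DEG in the fit on the condition alone. The searched motifs were TTCNNNGAA, a STAT site known as GAS, the core of the interferon-stimulated response element (ISRE, GAAA and GAAA with any 2 bases between them), and GAGGAAG, a site of the myeloid factor PU.1. Both strands were searched from 250 bases before to 50 bases after the start. Capitals mark a match, and each sequence holds the 250 bases upstream of the start, 5′ to 3′ on the gene's strand.
Fcgr3a (chr13:85782386-85782635, + strand): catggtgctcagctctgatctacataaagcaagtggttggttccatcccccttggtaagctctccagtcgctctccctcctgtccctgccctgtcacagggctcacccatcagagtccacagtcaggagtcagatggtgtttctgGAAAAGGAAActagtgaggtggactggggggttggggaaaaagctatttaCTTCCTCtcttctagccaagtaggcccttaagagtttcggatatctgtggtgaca
Axl (chr1:90424010-90424259, - strand): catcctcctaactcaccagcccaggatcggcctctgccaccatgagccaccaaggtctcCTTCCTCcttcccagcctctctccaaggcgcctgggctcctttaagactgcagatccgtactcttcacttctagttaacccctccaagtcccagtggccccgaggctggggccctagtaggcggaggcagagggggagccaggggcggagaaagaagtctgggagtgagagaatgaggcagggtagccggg
Pros1 (chr11:13677049-13677298, + strand): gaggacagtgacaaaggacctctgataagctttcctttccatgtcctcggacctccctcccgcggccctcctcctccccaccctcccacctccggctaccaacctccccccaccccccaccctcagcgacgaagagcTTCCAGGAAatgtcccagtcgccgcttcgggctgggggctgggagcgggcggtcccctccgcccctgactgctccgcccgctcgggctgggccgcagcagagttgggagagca
In Fcgr3a the ISRE letters lay at positions -105 to -96 and the PU.1 letters on the other strand at -55 to -49. Axl had the PU.1 letters at -191 to -185 on the other strand, and Pros1 had TTCNNNGAA at -113 to -105. The PU.1 letters were also found in 1 of the 2 entries of Fcgr2a, and none of the 3 motifs in the windows of Mertk and Gas6. Of all 33469 promoter windows in the table, 8.87% held TTCNNNGAA, 3.92% the ISRE core and 12.4% GAGGAAG. No match overlapped another. These are matches of letters only.

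Fcgr2b was measured at 88.3, 45.0 and 70.6 CPM in LPS replicates 1, 2 and 3, and at 444, 194 and 258 CPM in LPS/siponimod replicates 1, 2 and 3. Every LPS/siponimod library lay above the highest LPS library. The mean rose from 68.0 ± 21.8 to 299 ± 130.2 CPM (SD, n = 3 each). The log2 FC was 2.14 with 0.39 as its standard error (SE; edgeR quasi-likelihood adjusted p = 0.0145). Within pairs the log2 difference was 2.33, 2.10 and 1.87. With single libraries left out, the log2 FC ranged from 1.72 to 2.39. Of these fits, only the one without LPS replicate 2 had an adjusted p above 0.05 (0.0612).

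Fcgr1a, the high-affinity receptor, was measured at 790.1, 647 and 738 CPM with LPS and at 262, 399.8 and 222 CPM with LPS/siponimod. The groups did not overlap, and LPS/siponimod replicate 2 was closest to LPS, as it also was for Fcer1g and, by correlation, over the genes tested. The mean fell from 725 ± 72.2 to 295 ± 93.4 CPM (log2 FC -1.30, SE 0.25, quasi-likelihood adjusted p = 0.0169). Fcer1g, the chain shared by activating Fc receptors, stood at 1752, 1757 and 1429 CPM with LPS and at 838, 1089.5 and 762 CPM with LPS/siponimod. Here too all LPS/siponimod libraries were below the lowest LPS library. Its mean went from 1646 ± 188 to 896 ± 172 CPM (log2 FC -0.88, SE 0.21, quasi-likelihood adjusted p = 0.0274). Both genes kept a negative log2 FC whichever library was left out. Their calls did not hold without LPS replicate 1 (adjusted p = 0.0503 for Fcgr1a and 0.0688 for Fcer1g), LPS replicate 2 (0.0601 and 0.103), LPS/siponimod replicate 1 (0.0847 and 0.1195) or LPS/siponimod replicate 3 (0.0579 and 0.103).

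Fcgr3a, a low-affinity activating receptor that RefSeq lists also as Fcgr4, had 1809, 1774 and 558 CPM with LPS and 678, 875 and 257 CPM with LPS/siponimod. Replicate 3 was low in both groups, and LPS replicate 3 lay below LPS/siponimod replicates 1 and 2. Across groups the log2 FC of -1.19 had a SE of 0.60, and Fcgr3a was not a DEG (quasi-likelihood adjusted p = 0.175). Within pairs the differences were -1.42, -1.02 and -1.12. With the replicate block the same size of change (log2 FC -1.19) had an adjusted p of 0.00965, and Fcgr3a was then a DEG.

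The 2 rows of Fcgr2a, a low-affinity receptor that RefSeq lists with the synonym Fc gamma RIII and that was counted here with the activating receptors, were not lower on average. Fcgr2a_1 was at 2041, 1304 and 1504 CPM with LPS and at 2359, 1834 and 1782 CPM with LPS/siponimod. Fcgr2a_2 was at 4174, 2685 and 2931 CPM against 4076, 3345 and 2882 CPM. In both rows the groups overlapped, with a log2 FC of 0.30 for Fcgr2a_1 (SE 0.24, quasi-likelihood adjusted p = 0.372) and of 0.07 for Fcgr2a_2 (SE 0.26, adjusted p = 0.849). Summed before the fit, they had a log2 FC of 0.15 (SE 0.26, adjusted p = 0.687). The RefSeq gene table, made on another rat assembly, places a second gene, Fcgr2al1, and a pseudogene next to Fcgr2a. How reads that match several of these were divided is not stated, so that the split between both rows, and their share against Fcgr2b and Fcgr3a, is uncertain.

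The balance of inhibitory and activating Fc receptor transcripts was then compared within each library, where depth cancels. These are ratios of reads, and receptors of unequal length weigh unequally in a sum. For each read of Fcgr1a, Fcgr2a and Fcgr3a together, 0.0100, 0.00703 and 0.0123 reads of Fcgr2b were counted in LPS replicates 1, 2 and 3, and 0.0603, 0.0300 and 0.0502 in LPS/siponimod replicates 1, 2 and 3. The lowest LPS/siponimod library was thus above the highest LPS library. On the log2 scale the mean ratio moved from -6.71 ± 0.41 to -4.48 ± 0.52 (SD, n = 3 each), a 4.71-fold higher ratio, with p = 0.10 in an exact two-sided permutation test, the smallest value that 3 against 3 libraries allow. Within pairs the differences were 2.59, 2.09 and 2.03. As a share of all Fc gamma receptor reads, Fcgr2b went from 0.969 ± 0.260% to 4.46 ± 1.41% and Fcgr1a from 10.5 ± 1.97% to 4.49 ± 1.37%, while both Fcgr2a rows together went from 69.4 ± 7.34% to 82.2 ± 4.23% (SD, n = 3 each, exact permutation p = 0.10 for each). The share of Fcgr3a overlapped between groups (19.1 ± 8.997% and 8.86 ± 4.21%, exact permutation p = 0.20) and was lower in each pair (8.67% against 20.3%, 13.2% against 27.5% and 4.75% against 9.61%). The share of Fcgr2a_2 alone had an exact permutation p of 0.20 as well. Without the Fcgr2a rows, the ratio of Fcgr2b to Fcgr1a and Fcgr3a was 10.4-fold higher with LPS/siponimod (log2 difference 3.38, exact permutation p = 0.10). The ratio of Fcer1g to Fcgr1a and Fcgr3a overlapped between groups (log2 -0.30 ± 0.38 with LPS and 0.09 ± 0.50 with LPS/siponimod, exact permutation p = 0.40), and it was higher in each pair, by 0.40, 0.24 and 0.53 on the log2 scale. This sum leaves out the Fcgr2a rows, which held most Fc gamma receptor reads. The ratio therefore does not set Fcer1g against all activating receptors counted here.

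**Figure D2:**
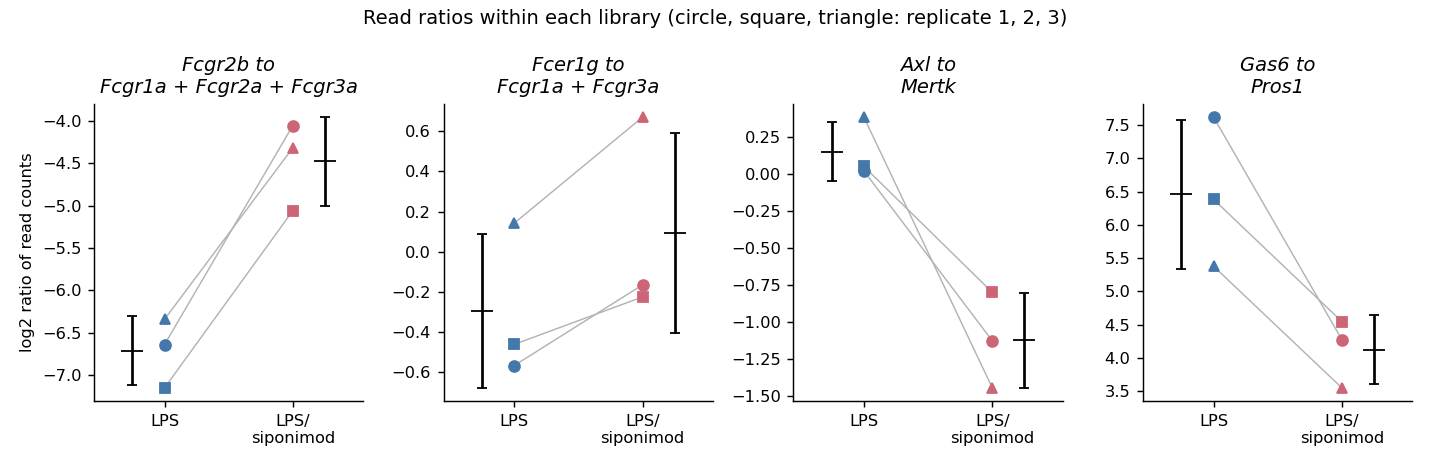
The log2 ratio of read counts within each library for 4 pairs of members or sums of members, in LPS (blue) and LPS/siponimod (red), with grey lines joining same-numbered libraries and black bars for mean ± SD of 3 libraries. The ratio of Fcgr2b to activating receptors is higher, and those of Axl to Mertk and of Gas6 to Pros1 are lower, in each LPS/siponimod library than in any LPS library.

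Among the TAM receptors, Axl was at 423, 271 and 183 CPM with LPS and at 68.7, 94.4 and 82.4 CPM with LPS/siponimod. The LPS libraries spread over a wide range, and all of them lay above the LPS/siponimod libraries, which were close together. The mean fell from 293 ± 121 to 81.8 ± 12.8 CPM (mean ± SD of 3 libraries each; log2 FC -1.84, SE 0.32, quasi-likelihood adjusted p = 0.0134). Within pairs, Axl differed by -2.62, -1.52 and -1.15. Its adjusted p was 0.0574 without LPS replicate 2, 0.0686 without LPS/siponimod replicate 1 and 0.0541 without LPS/siponimod replicate 3, and its log2 FC ranged from -2.08 to -1.46 over all 6 fits with a library left out.

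Mertk was at 417, 262 and 141 CPM with LPS and at 150.3, 164 and 225 CPM with LPS/siponimod. The groups overlapped, and the third pair went against the others, with within-pair differences of -1.47, -0.67 and 0.68. Mertk was not a DEG (273 ± 139 against 179.8 ± 39.5 CPM, log2 FC -0.60, SE 0.40, quasi-likelihood adjusted p = 0.284). The ratio of Axl to Mertk reads was 1.01, 1.04 and 1.30 in LPS replicates and 0.457, 0.574 and 0.367 under LPS/siponimod, without overlap. It was 2.42-fold lower with LPS/siponimod (log2 difference -1.28, exact two-sided permutation p = 0.10), and lower in all 3 pairs. Tyro3, the third receptor of the family, was scarcely detected, with 44, 36 and 47 counts in the LPS group and 73, 39 and 65 under LPS/siponimod (log2 FC 0.25, quasi-likelihood adjusted p = 0.618).

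The ligand genes differed from each other. Gas6 was at 681, 237 and 70.0 CPM with LPS and at 89.9, 86.2 and 71.0 CPM with LPS/siponimod. The LPS/siponimod libraries were close together, whereas the LPS libraries spread from the highest to the lowest value of all 6. The log2 FC of -2.00 had a SE of 0.75, and Gas6 was not a DEG by the quasi-likelihood test (adjusted p = 0.0916), though it was one by edgeR's likelihood ratio test (adjusted p = 0.0248) and by DESeq2 (adjusted p = 0.0125). With limma-voom (log2 FC -1.46, adjusted p = 0.175) and with the replicate block (log2 FC -1.46, adjusted p = 0.112) it was not. Without LPS replicate 3 the log2 FC was -2.48 (quasi-likelihood adjusted p = 0.0171), and without LPS replicate 1 it was -0.89 (0.264). The third pair differed by 0.02 on the log2 scale, against -2.92 and -1.46 in the first and the second.

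Pros1 was low throughout, with 128, 109 and 62 counts in LPS replicates and 215, 164 and 248 under LPS/siponimod. All LPS/siponimod libraries were above all LPS libraries, by a small margin in CPM (2.65 ± 0.906 against 4.78 ± 1.19 CPM, SD, n = 3 each). Its log2 FC of 0.85 (SE 0.35) did not pass the test (quasi-likelihood adjusted p = 0.111). The ratio of Gas6 to Pros1 reads was 197, 83.5 and 41.6 in LPS replicates and 19.4, 23.4 and 11.7 under LPS/siponimod. It was 5.05-fold lower with LPS/siponimod (log2 difference -2.34, exact two-sided permutation p = 0.10).

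**Figure D3:**
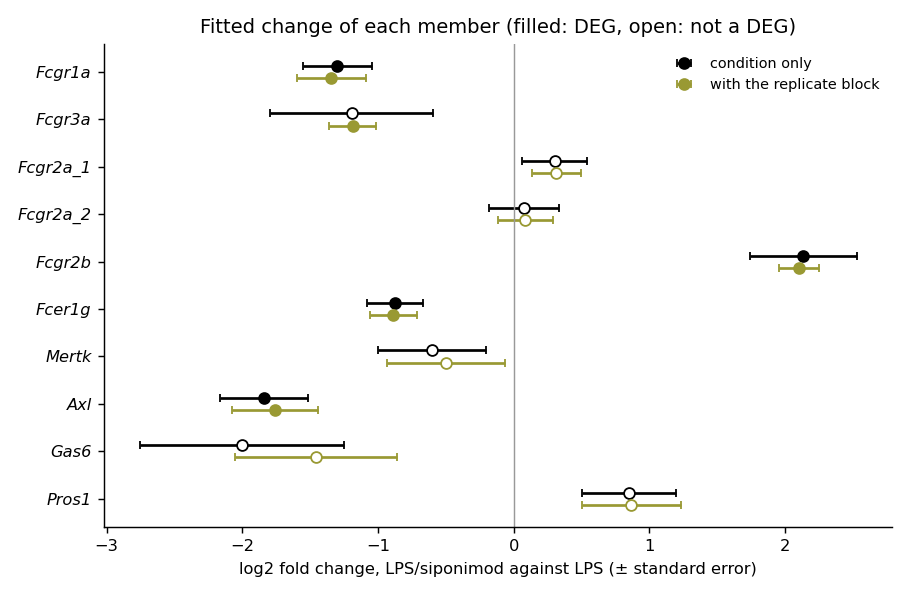
Log2 fold change of LPS/siponimod against LPS for the 10 rows, fitted on the condition alone (black) and with the replicate number as a block (olive). Bars are SEs, and filled points are DEGs. Fcgr2b stands at 2.14 to the right of 0, and Fcgr1a, Fcer1g and Axl are DEGs to its left in both fits, while Fcgr3a is a DEG only with the block.

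Among genes that relay Fc receptor signals, 17 of the 21 genes of the activating list lay below and 4 above a log2 FC of 0 (median -0.84), where 6138 of all 11977 genes lay below it. All 21 were tested, and 8 were downregulated DEGs and 1 was an upregulated DEG, beside 11.7% and 13.6% of all genes. This list held 1 downregulated DEG without LPS replicate 1, LPS replicate 2 or LPS/siponimod replicate 1. Over all genes the shares of downregulated DEGs in these fits were 5.13%, 1.44% and 1.52%. The list held 2 without LPS/siponimod replicate 3, 9 without LPS replicate 3 and 11 without LPS/siponimod replicate 2, beside 2.24%, 14.5% and 11.6%. With the replicate block it held 12, beside 16.4% of all genes. The adaptor Lat2 fell from 71.2 ± 8.82 to 20.4 ± 6.20 CPM (mean ± SD of 3 libraries each; log2 FC -1.80, SE 0.24, quasi-likelihood adjusted p = 0.00733). The Src family kinase Fgr (log2 FC -1.45, quasi-likelihood adjusted p = 0.0171) and the kinase Btk (-1.04, 0.0239) also fell. Lyn, Plcg2, Vav1 and Vav3 were also among the downregulated DEGs. Syk itself, at 295, 307 and 218 CPM with LPS and 126, 198 and 95.1 CPM with LPS/siponimod, missed the threshold (log2 FC -0.97, quasi-likelihood adjusted p = 0.0543) and passed it with the replicate block (0.0131). The adaptor Gab2 rose from 123 ± 27.8 to 277 ± 43.3 CPM (log2 FC 1.18, quasi-likelihood adjusted p = 0.0145). Tyrobp, which encodes the partner chain DAP12 of other myeloid receptors, had a log2 FC of -0.24 (adjusted p = 0.411).

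The list of inhibitory signalling held 14 tested genes, 7 on either side of 0, with a median of 0.05, and 3 of them were downregulated DEGs and 1 was an upregulated DEG, beside 11.7% and 13.6% of all genes. Inpp5d, which encodes SHIP-1, the phosphatase that acts behind Fcgr2b, fell from 276 ± 15.4 to 135 ± 40.0 CPM (log2 FC -1.03, SE 0.22, quasi-likelihood adjusted p = 0.0225). The kinase Csk (log2 FC -1.20, adjusted p = 0.0261) and the phosphatase gene Ptpn6 (-1.44, 0.0449) fell as well. Lilrb4, an inhibitory receptor of myeloid cells, was at 72.7, 41.7 and 46.97 CPM with LPS and at 596, 486 and 785 CPM with LPS/siponimod. It rose in all 3 pairs, with a log2 FC of 3.53 (SE 0.31, quasi-likelihood adjusted p = 0.00396). Of 5 tested genes of other Fc receptors 1 was a DEG, beside 25.3% of all genes. This was Trim21, a cytosolic antibody receptor and ubiquitin ligase (122 ± 3.22 against 63.6 ± 6.83 CPM, log2 FC -0.94, quasi-likelihood adjusted p = 0.00733). Fcrl2, a receptor-like gene of microglia, had 4248, 4775 and 2650 CPM with LPS and 1161, 2774 and 469 CPM with LPS/siponimod. It was not a DEG (log2 FC -1.41, adjusted p = 0.142) and became one with the replicate block (-1.72, 0.0257). With the block this list held 2 downregulated DEGs, beside 16.4% of all genes. The median log2 FC of this list was 0.34, and it was negative in 4 of the 6 fits with a library left out (range -0.45 to 0.45).

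**Figure D4:**
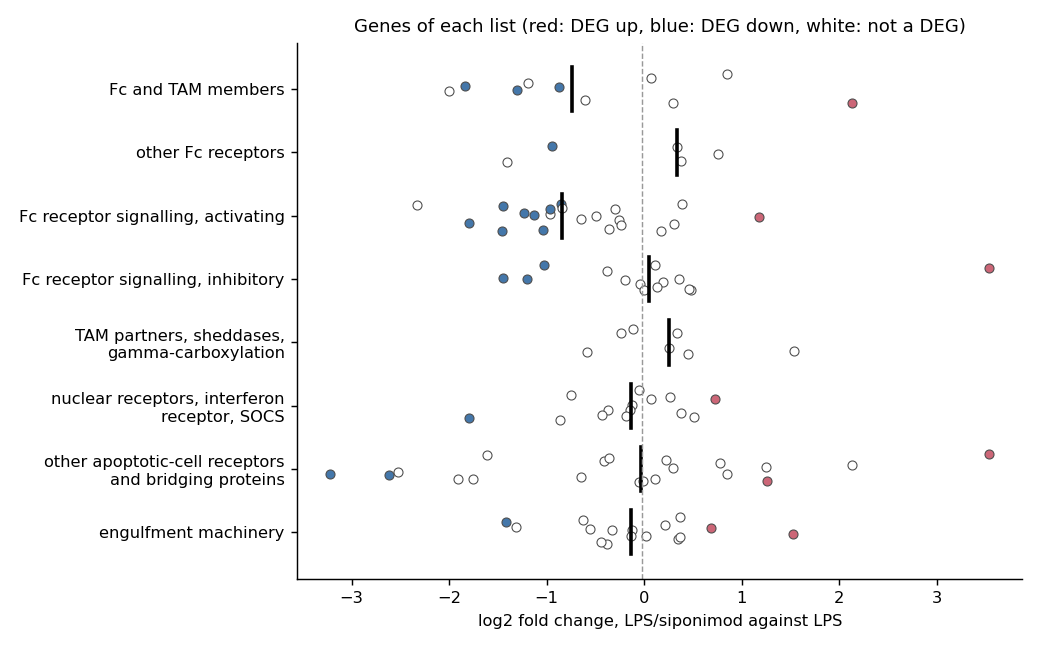
Log2 fold change of LPS/siponimod against LPS (horizontal axis) for each tested gene of the 8 lists, 1 list per line, with DEGs filled red (up) or blue (down), a black bar at the list's median and a dashed line at the median of all genes tested. The activating Fc receptor list is centred at -0.84, and the other lists outside the members have medians between -0.14 and 0.34, of which those of other Fc receptors, inhibitory signalling, nuclear receptors and apoptotic-cell receptors change sign with single libraries left out.

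Around the TAM receptors, 7 genes of partners, sheddases and gamma-carboxylation were tested, with a median log2 FC of 0.25. None was a DEG by the quasi-likelihood test, beside 25.3% of all genes. An unadjusted p under 0.05 was found for 4 of them, of which Vkorc1l1 (log2 FC 0.45, quasi-likelihood adjusted p = 0.0388) passed the adjusted test below the fold threshold. The list held 1 DEG by the likelihood ratio test and 1 with the replicate block, beside 29.8% and 34% of all genes. Lgals3, which encodes galectin-3, had 1204, 565 and 319 CPM with LPS and 2855, 1536 and 1664 CPM with LPS/siponimod, higher in all LPS/siponimod libraries (log2 FC 1.54, quasi-likelihood adjusted p = 0.0735, or 0.0131 once replicates were blocked). The sheddase Adam17 had a log2 FC of -0.58 (adjusted p = 0.0728), and Ggcx, the carboxylase that makes Gas6 and protein S able to bind phosphatidylserine, of -0.24 (adjusted p = 0.521). Among 14 tested genes of nuclear receptors, the interferon receptor and SOCS proteins, with a median of -0.14, Nr1h3, which encodes the oxysterol receptor LXR alpha, fell from 79.4 ± 28.2 to 22.8 ± 7.23 CPM (log2 FC -1.80, SE 0.34, quasi-likelihood adjusted p = 0.0155). Rxrb, one of the partners of LXR, rose from 57.9 ± 5.39 to 96.1 ± 10.4 CPM (log2 FC 0.73, adjusted p = 0.0146). With the replicate block Socs1, an inhibitor of cytokine signalling, was a second downregulated DEG of this list (log2 FC -0.85, adjusted p = 0.0255). By that fit 16.4% of all genes were downregulated DEGs.

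Of 20 tested genes of other receptors and bridging proteins for apoptotic cells, 2 were upregulated and 2 downregulated DEGs, a share near or below that of all genes in each direction (13.6% and 11.7%), with a median of -0.04 (-0.48 to 0.28 with a library left out). With the replicate block these numbers were 5 and 6, where 17.7% of all genes were upregulated and 16.4% downregulated DEGs. Stab1, a scavenger receptor that binds phosphatidylserine, fell from 868 ± 151 to 93.3 ± 64.4 CPM (log2 FC -3.22, SE 0.59, quasi-likelihood adjusted p = 0.0143), and P2ry6, a nucleotide receptor linked to microglial phagocytosis, from 349 ± 43.4 to 56.9 ± 38.7 CPM (log2 FC -2.62, SE 0.52, adjusted p = 0.0177). Havcr2, which encodes TIM-3, rose from 14.8 ± 7.55 to 172 ± 86.6 CPM (log2 FC 3.54, SE 0.55, adjusted p = 0.0101), and the integrin chain Itgav from 113 ± 23.3 to 271 ± 49.8 CPM (log2 FC 1.26, adjusted p = 0.0120). The complement genes C1qa, C1qb and C1qc had log2 FCs of -1.75, -1.61 and -1.91 without passing the test (adjusted p = 0.0901, 0.0566 and 0.0515) and were DEGs with the block. Of 16 tested genes of the engulfment machinery, with a median of -0.13, Elmo1, which activates Rac together with Dock proteins, fell (log2 FC -1.41, quasi-likelihood adjusted p = 0.0187), while the lysosomal channel gene Mcoln1 (1.53, 0.00655) and the endosomal Rab5a (0.68, 0.0244) rose. With the replicate block Rhog and Cybb joined Elmo1.

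Over these 7 lists 23 of 97 tested genes were DEGs (23.7%, beside 25.3% of all genes). Of them, Trim21, Lat2, Lilrb4, Havcr2 and Mcoln1 were DEGs in each of the 6 fits with a library left out, as were 562 (18.5%) of the 3036 DEGs over all genes. Of the 23, 5 were DEGs without LPS replicate 2, 8 without LPS/siponimod replicate 1 or replicate 3, 11 without LPS replicate 1, 21 without LPS replicate 3 and 23 without LPS/siponimod replicate 2. Of all 3036 DEGs, 21.3% were kept without LPS replicate 2, 25.8% and 33.7% without LPS/siponimod replicate 1 and replicate 3, 53.3% without LPS replicate 1, 88.4% without LPS replicate 3 and 83.6% without LPS/siponimod replicate 2. The median of the activating list stayed between -1.03 and -0.58 in these 6 fits. In the inhibitory list no downregulated DEG was left without LPS replicate 1, LPS replicate 2, LPS/siponimod replicate 1 or LPS/siponimod replicate 3, and Lilrb4 was a DEG each time.

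Defining markers of microglia and of other cells were examined in every library. All 12 microglial markers were detected, and their summed level was 7729, 6526 and 4415 CPM with LPS and 2909, 4095 and 2376 CPM with LPS/siponimod, with Csf1r the most abundant over all libraries and Itgam above it in both libraries numbered 3. Of these 12, Aif1 (log2 FC -1.88), Itgam (-0.87) and Cx3cr1 (-3.65) were downregulated DEGs and Sall1 (0.93) was an upregulated one, while Ptprc, the common leukocyte antigen, had a log2 FC of -0.02. Itgam belongs to the antigen used for purification. LPS replicate 3 had the lowest microglial sum of its group, as it had for Mertk, Axl and Gas6. The part of this sum in the values above was not tested.

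Among markers of B lymphocytes, which also carry Fcgr2b, Cd79b was the most abundant over all libraries. It was at 16.0, 60.8 and 30.8 CPM with LPS and at 0.818, 21.96 and 0.976 CPM with LPS/siponimod. Of the T and NK cell markers Cd3e, Cd3g and Nkg7 had no count, and the sum did not exceed 0.0646 CPM. The neutrophil sum went from 2.29, 2.44 and 3.31 to 0.517, 0.695 and 0.659 CPM (mostly S100a8 in the LPS libraries and Camp in the LPS/siponimod libraries, with Mpo and Elane at 0). Astrocyte markers, led by Slc1a3, summed to 48.4, 24.2 and 24.98 CPM with LPS and 29.3, 28.8 and 59.6 CPM with LPS/siponimod, and those of fibroblasts and mural cells to 6.05, 4.78 and 3.98 against 11.9, 4.64 and 8.68 CPM. In that list Col1a1 was the most abundant in the LPS libraries (3.05, 2.99 and 2.40 CPM, against 1.33, 1.37 and 1.85 CPM with LPS/siponimod), and Dcn was at 0.0810, 0 and 0.108 CPM with LPS and at 9.81, 1.10 and 4.34 CPM with LPS/siponimod, an upregulated DEG. Oligodendrocyte lineage markers summed to 5.34, 5.37 and 36.0 against 11.4, 10.3 and 22.6 CPM, with Mbp the most abundant over all libraries and Olig1 (13.9 CPM) in LPS replicate 3, and neuronal markers (led by Tubb3) to 1.67, 1.06 and 11.3 against 6.39, 9.28 and 17.0 CPM. Of these 2 lists, Mbp (log2 FC 1.74, quasi-likelihood adjusted p = 0.0172) and Snap25, which had 0, 1 and 1 counts with LPS and 94, 153 and 81 counts with LPS/siponimod (adjusted p = 0.00539), were upregulated DEGs. Aldoc of the astrocyte list (log2 FC -1.12, adjusted p = 0.0401) and S100a8 of the neutrophil list (-3.57, 0.0219) were downregulated DEGs. The 4 endothelial markers found, with Cdh5 the most abundant over all libraries, Pecam1 above it in LPS replicate 2, and Kdr at 0, summed to 155, 202 and 81.7 against 36.1, 78.4 and 24.4 CPM. Those of border macrophages and monocytes, with Pf4 the most abundant over all libraries, Mrc1 above it in LPS replicates 2 and 3, and Ccr2 at 0, summed to 846, 487 and 695 against 428, 344 and 533 CPM. In this list the log2 FC of Pf4 was 0.38 (edgeR quasi-likelihood adjusted p = 0.480), while Mrc1 (-2.41, 0.00540) and Ms4a7 (-1.87, 0.00779) fell. The part of any of these cells in the values above was not tested.

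The genes whose log2 CPM followed a member most closely over the 6 libraries were listed as a description. Both conditions lie apart for many genes, so that these values carry the difference between the conditions as well as the spread within them. Fcgr2b was closest to Clic4 (Pearson r = 0.998), a chloride intracellular channel gene, and Kifap3 (0.998), an adaptor of kinesin motors. Fcer1g was closest to Cp, the ferroxidase ceruloplasmin (0.999), Fcgr1a to Lacc1 (0.997) and Fcgr3a to Ramp1 (0.998), and the second gene of each of these 3 was a model without a gene symbol. Axl was closest to Dclre1c, a nuclease of DNA repair (0.999), and to Bst2, the interferon-inducible tetherin (0.996). Mertk was closest to Acad8 (0.997) and Ddit4 (0.980), Gas6 to Nmrk1 (0.995) and Ascc3 (0.993), and Pros1 to Cnksr3 (0.989) and Fam102b (0.986). The 2 rows of Fcgr2a were closest to different genes, Fcgr2a_1 to Hist1h2bc (0.996) and Kifc2 (0.984), and Fcgr2a_2 to a gene model without a symbol (0.992) and Cep112 (0.974).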

How the data were processed

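The authors trimmed single-end reads and mapped them to the rat genome (mRatBN7.2) in the CLC Genomics Workbench, and bcl2fastq (version 2.20.0.422) is named in the submitters' notes. They deposited total counts per gene for each of 6 libraries, without normalization. How multi-mapping reads, strand and introns were handled is not given in the sources used here. In the table of 1 library, 1 row without name or value was left out. Between 38080379 and 46643859 counts per library were available.

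edgeR (version 4.0.16), run under R (version 4.3.3), was applied to the counts as deposited: filterByExpr (minimum count 10, minimum total 15) left 11977 of 23139 genes, followed by TMM factors, glmQLFit and glmQLFTest on the condition, and Benjamini-Hochberg adjustment over the genes tested. DEGs changed 1.5-fold or more with an adjusted p not above 0.05. CPM are scaled by TMM, and within-pair differences are log2 CPM with a prior count of 2. The standard error (SE) is the log2 FC divided by the root of the F statistic. With 3 replicates of unstated origin per group, p-values measure the spread between these libraries. Ratios are log2 of counts plus 0.5, tested by an exact permutation of libraries.

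Alternatives were RLE factors, DESeq2 (version 1.42.0), limma-voom (limma version 3.58.1), the likelihood ratio test, other filters (at least 1 count, or a mean of 1 CPM), a replicate block, and each library left out. Added after seeing the data were the block with a library left out, the Fcgr2a rows summed, and ratios without or between these rows. The code was checked on simulated counts. Replicates carry the numbers 1 to 3 in both groups. The correlation over genes of their deviations from the group mean was 0.420, 0.545 and 0.611 for equal numbers and between -0.534 and 0.0856 for unequal ones. On this evidence, and not on a statement of the study, within-pair differences and a replicate block are given. The fit on the condition and the permutation tests of ratios did not use the pairs. With the pairs used, a sign-flip test of a ratio could not give a p below 0.25.

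Members, 7 pathway lists and 10 marker lists were chosen with earlier results of these data known. Named are the members, up to 3 DEGs per direction and list with the smallest adjusted p, and the 2 genes closest to each member where these have a gene symbol. The other genes of the lists that are named, Tyro3 included, were chosen after their values were seen. The summed markers print the most abundant gene and those at 0. Some genes of the lists are not reported here.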

Additional observations from a re-analysis of the deposited data

How the results depend on the processing

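In the 7 alternatives of normalization, test, filter and block, Fcgr1a, Fcgr2b, Fcer1g and Axl remained DEGs, and Gas6 (DESeq2, likelihood ratio test) or Fcgr3a (replicate block) joined them. The number of all DEGs ranged from 2542 to 4074 in these. Leaving out each library gave between 651 and 3713 DEGs and between 0 and 5 among the 10 rows. The log2 FC of Fcgr2a_2 then ranged from -0.0736 to 0.307, with its sign turned without LPS replicate 2 (-0.0391) and without LPS/siponimod replicate 1 (-0.0736). With the replicate block, all DEGs numbered 4074, and 1618 when LPS replicate 1 was left out as well. With this block and a library left out, added after seeing the data, Fcgr2a_2 turned without LPS replicate 2 (-0.0124) and LPS/siponimod replicate 2 (-0.0333), and Mertk without LPS replicate 1 (0.0191). In such fits a library whose partner was left out carries no information on the difference between conditions. Leaving out either library of a pair therefore rests on the same remaining pairs, and these are not 6 separate checks. Mertk was a DEG without replicate 3 of LPS (log2 FC -1.08, edgeR quasi-likelihood adjusted p = 0.0399) or of LPS/siponimod (-1.07, 0.0390), as was Gas6 (0.0248 and 0.0242). Fcer1g was then no DEG in 4 of these 6 fits (0.0577 to 0.0900) and Fcgr1a in 2 (0.0662 and 0.0806). Without a library left out, the block changed no call of the 10 rows other than that of Fcgr3a. Every ratio of members kept its direction in the alternatives run for it (another pseudocount, pairing, and a library left out). The cause of these changes was not tested. Pros1 and Tyro3 rest on few counts (62 to 248 and 36 to 73 per library).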
